A study of Mus musculus with 12 samples.

Results

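The genes described here are 30 members of the piRNA pathway and of retrotransposon silencing in the male germ line, taken by symbol from a fixed list. All 30 are among the 20788 genes of the expression table, and all 30 passed the filter on low counts, as did 16395 genes in all. The data are RNA sequencing of testes of F1 mice of a strain that the labels write as IRC mouse. Testes had been transfected with virus meant to raise the long non-coding RNA lncRNA8276 (overexpression, 8276OV) or to inhibit it (knockdown, 8276KD), and the 4 groups hold 3 libraries each. Control_5NC and control_3NC are the groups named 5NC and 3NC, for which the labels do not state what virus was given. The control for each arm was inferred from the order of the design text, which puts 5NC with overexpression and 3NC with knockdown. The labels give no age, no vector and no cell type that took up the virus. They also leave unsaid whether replicate libraries stem from different animals, so p-values rest on a spread between samples that could be technical. LncRNA8276 itself was not analysed here.

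PIWI-interacting RNAs (piRNAs) are small RNAs of germ cells that guide PIWI proteins to complementary transcripts, above all those of retrotransposons. Long precursors are unwound and cut at the surface of mitochondria, loaded into a PIWI protein, trimmed and methylated. Tudor proteins hold the PIWI proteins in granules such as the intermitochondrial cement of spermatocytes and the chromatoid body of spermatids. In the fetal testis a nuclear PIWI protein directs DNA methylation to retrotransposons, and in adult spermatocytes the transcription factor A-MYB (gene Mybl1) switches on both piRNA precursors and many genes of the pathway.

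Start regions of the genes were read for the A-MYB core GGCNGTT on both strands, because that factor is the known activator of many members. RefSeq gave at least 1 start region for 24 of the 30 genes (build GRCm38.p6), and in the 250 bases before the start the core was found in 10 of the 24 (41.7%), against 11.1% of 27025 genes. These 27025 are all genes with a RefSeq start region, whether or not they were tested here for expression. No background matched by expression or base content was read. Several genes have more than 1 annotated start. Counted by start region the core was in 32.4% of those of the members and in 9.83% of all. The 10 genes were Mael, Gpat2, Tdrkh, Tdrd7, Piwil1, Tdrd12, Ranbp9, Mov10l1, Morc2b and Tdrd1. All 250 bases of the Ranbp9 window lie in bases that GENCODE annotates as exons of that gene. For Gpat2 and Tdrkh the bases after the RefSeq start were not found in a GENCODE transcript. The starts of these genes are therefore less certain. For Tdrd1 the core lay only in a start region inside the gene, at chr19:56830462-56830711. Its start regions at the beginning of the gene, chr19:56825959-56826208 and chr19:56826025-56826274, did not hold it. The sequences below show 4 genes with the core and, as a contrast, Tdrd9, whose window does not hold these letters. Capitals mark the core (AACNGCC where it lies on the other strand), sequences run 5′ to 3′ on the strand of the gene, and bases annotated as exons of the gene itself were left out. Mael lies at chr1:166238748-166238994 (minus strand), Piwil1 at chr5:128735996-128736173 (plus), Tdrd12 at chr7:35537746-35537994 (minus), Morc2b at chr17:33139684-33139933 (minus) and Tdrd9 at chr12:111971309-111971558 (plus).
Mael: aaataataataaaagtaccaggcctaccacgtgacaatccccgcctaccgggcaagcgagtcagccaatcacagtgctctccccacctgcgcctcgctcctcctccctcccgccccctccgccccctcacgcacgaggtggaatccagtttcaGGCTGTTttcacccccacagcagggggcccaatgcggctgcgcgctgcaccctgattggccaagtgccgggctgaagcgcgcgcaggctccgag
Piwil1: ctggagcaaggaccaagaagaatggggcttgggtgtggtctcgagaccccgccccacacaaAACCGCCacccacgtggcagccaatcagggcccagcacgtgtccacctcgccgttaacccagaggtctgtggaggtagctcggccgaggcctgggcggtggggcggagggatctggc
Tdrd12: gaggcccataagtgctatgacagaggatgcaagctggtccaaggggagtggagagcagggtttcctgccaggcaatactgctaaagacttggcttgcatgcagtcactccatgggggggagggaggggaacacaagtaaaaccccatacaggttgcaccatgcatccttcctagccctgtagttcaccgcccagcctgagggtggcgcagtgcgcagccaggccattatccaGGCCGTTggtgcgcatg
Morc2b: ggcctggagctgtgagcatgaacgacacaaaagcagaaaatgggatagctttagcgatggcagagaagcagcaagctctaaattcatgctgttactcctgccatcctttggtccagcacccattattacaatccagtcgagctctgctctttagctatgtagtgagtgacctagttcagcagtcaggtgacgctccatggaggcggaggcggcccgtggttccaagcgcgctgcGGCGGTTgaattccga
Tdrd9: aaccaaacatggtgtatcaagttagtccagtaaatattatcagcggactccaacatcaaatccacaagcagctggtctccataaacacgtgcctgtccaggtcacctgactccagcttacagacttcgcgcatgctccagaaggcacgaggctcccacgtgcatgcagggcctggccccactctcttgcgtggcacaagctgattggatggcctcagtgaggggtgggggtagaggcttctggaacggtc
The first base of the core lies 97 bases before the start of Mael, 189 before that of Piwil1, 18 before that of Tdrd12 and 16 before that of Morc2b. Piwil1 holds 2 further matches, 75 and 66 bases before the start, which lie in part or whole inside bases that GENCODE annotates as its exon and are therefore not shown in full. The cyclic AMP response core TGACGTCA, read in the same way, was in 1 of the 24 genes, Kif17, and in 1.77% of the same 27025 genes. These matches are letters in a window and are no measure of binding.

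The 12 libraries held 13485479 to 15771655 counts. Germ cell, Sertoli and Leydig markers were present in each library: the protamine gene Prm1 at 2460 to 3511 counts scaled to library size (CPM), the synaptonemal complex gene Sycp3 at 188 to 297, Sox9 at 10 to 15.8 and Star at 47.1 to 195 CPM. The library control_3NC 2 stood apart. Its median correlation with the other libraries was 0.948, against 0.974 to 0.984 for the rest. The summed level of 22 macrophage and leukocyte genes was 1352 CPM there and 155 to 230.3 CPM in the other 11. The summed level of 23 type I interferon response genes was 846.5 CPM there and 72.9 to 234.9 CPM elsewhere. Other libraries differed in transcripts of neighbouring tissue. A list of 15 epididymis genes summed to 928.6 CPM in knockdown 1 and 415 in control_5NC 2, and to 71.1 to 239 CPM in the other 10. The 12 Leydig cell genes summed to 1125 CPM in knockdown 1 and 1232 in control_3NC 3, and to 1637 to 2477 CPM in the rest. Control_5NC 2, control_5NC 3 and overexpression 2 had the 3 lowest totals, at most 13847277 counts, against at least 15252025 in the other 9.

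The pathway was expressed in every library and at levels that spanned more than 3 orders of magnitude per length. The unit of the deposited per-length values is not stated; they behave as fragments per kilobase scaled to the library total (FPKM) and are called so here, as mean ± SD over the 12 libraries. Mael, a granule protein needed for silencing of retrotransposons, was highest at 957 ± 41.7 FPKM. Gtsf1, a zinc finger protein that assists PIWI proteins in cutting their targets, followed at 489 ± 33.2, and the helicases Ddx25 and Ddx4 stood at 336 ± 19.3 and 248 ± 25.3 FPKM. Neighbours in this order overlapped for many members, as did Piwil1 (101 ± 6.73) and Tdrd7 (97.4 ± 6.86). The 5 lowest were Exd1 (6.78 ± 0.923), Pnldc1 (4.58 ± 0.350), Morc1 (2.0 ± 0.432), Btbd18 (1.79 ± 0.154) and Piwil4 (0.205 ± 0.0782). The members' median was 32.2 FPKM, against 6.39 for all tested genes. The gene lengths implied by the deposited values differed between libraries for Tdrd12 (3119 to 4043 bases) and Tex15 (6831 to 8218 bases), so their per-length levels are less certain.

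**Figure D1:**
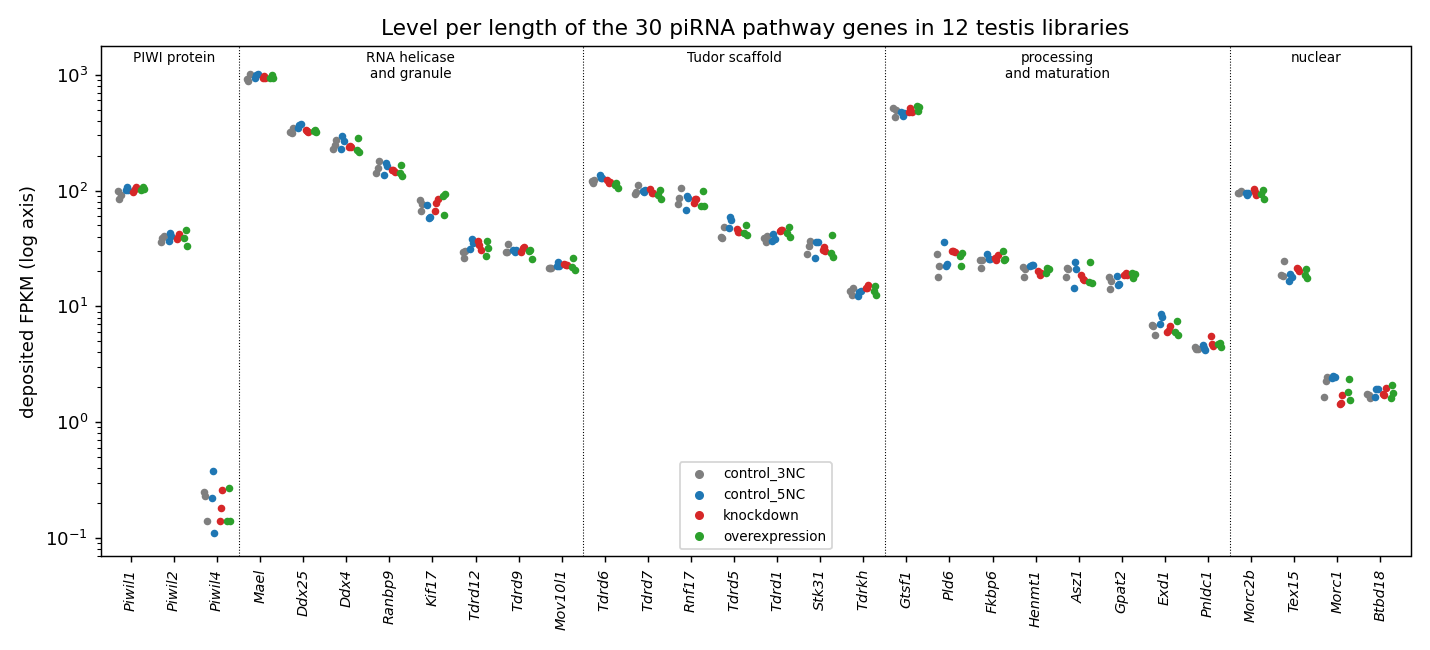
Deposited per-length level (FPKM, log axis) of the 30 genes in each of the 12 libraries, ordered by role and level, with 1 point per library coloured by group. Mael lies at 886 to 1020.5 FPKM and Piwil4 at 0.110 to 0.380, and for most genes the colours of the 4 groups lie on top of each other.

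No member passed edgeR's quasi-likelihood test (adjusted p under 0.05 over all tested genes) in any of the comparisons made. The count was 0 of 30 for overexpression against control_5NC, where 0.476% of all tested genes passed, and 0 of 30 for knockdown against control_3NC, where 0.0183% passed. It was also 0 of 30 for control_5NC against control_3NC (background 0.244%), for the difference between the overexpression and knockdown effects (0.0183%) and for overexpression against knockdown (0%). In that last comparison 343 of all tested genes (2.09%) had an unadjusted p under 0.05, 12 passed by DESeq2 and 0 by limma-voom. The fits bound the differences. The 95% interval of the log2 fold change lay inside a 1.5-fold change either way for 27 of the 30 genes in overexpression against control_5NC, all but Piwil4, Kif17 and Morc1. The same count held in knockdown against control_3NC, all but Piwil4, Pld6 and Morc1, and a 2-fold change lay outside the interval for every member but Piwil4 in both. In whole testis a smaller number of the cells that express a gene and less of its RNA in each cell cannot be told apart.

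The members as a list lay close to no difference, as all genes did. Their median log2 fold change was 0.013 in overexpression against control_5NC, 17 above 0 and 13 below, beside -0.012 for all tested genes. With libraries scaled by total counts only it was -0.026, beside -0.052 for all tested genes. In knockdown against control_3NC the median was 0.010, 18 above 0 and 12 below, beside -0.025 for all. Single libraries set the sign. The knockdown median was -0.061 without control_3NC 2 and 0.088 without control_3NC 3, and the overexpression median was -0.041 without control_5NC 1 and -0.075 without overexpression 2. The median size of the difference, whatever its sign, was 0.091 for the members and 0.167 for all tested genes in overexpression against control_5NC, and 0.064 and 0.158 in knockdown against control_3NC. Over the 12 libraries the members had a median coefficient of variation of 9.61%, beside 15.7% for all tested genes. The value was 15.4% for the 15955 tested genes in the members' range of mean CPM, 0.646 to 1352. That range holds nearly all tested genes. The members' median level was 32.2 FPKM and that of all tested genes 6.39, so neither set matches the members by level.

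**Figure D2:**
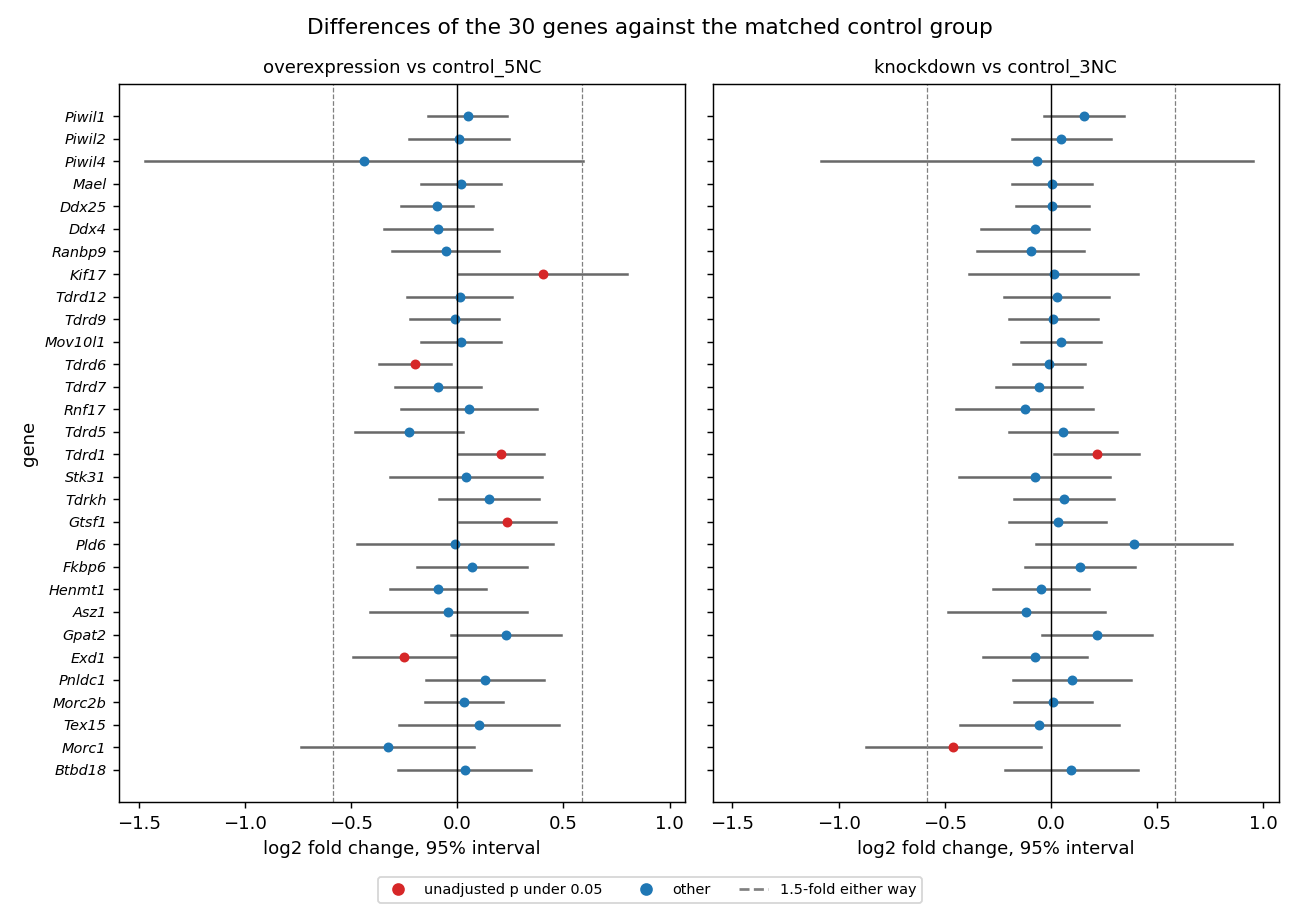
Log2 fold change with its 95% interval for each of the 30 genes, overexpression against control_5NC and knockdown against control_3NC, with dashed lines at 1.5-fold either way. Red marks an unadjusted p under 0.05, which 5 genes had in the first comparison and 2 in the second, and the widest interval is that of Piwil4.

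The PIWI proteins come first by role. Piwil1 (MIWI, chr5:128702524-128755474, plus strand) carries piRNAs in late spermatocytes and round spermatids. Its normalised level was 382, 306 and 364 CPM in control_3NC 1 to 3, 383, 398 and 377 in control_5NC, 369, 394 and 408 in knockdown and 394, 402 and 401 in overexpression. The library control_3NC 2 was the lowest of the 12, and the other 11 lay within 364 to 408. Its log2 fold change was 0.05 ± 0.086 (SE) in overexpression against control_5NC (edgeR adjusted p = 0.856) and 0.16 ± 0.086 in knockdown against control_3NC (edgeR adjusted p = 0.564). Piwil2 (MILI, chr14:70372477-70429383, minus strand), which acts from the fetal testis to round spermatids, was at 175, 177 and 205 CPM in control_3NC, 174, 201 and 191 in control_5NC, 182, 191 and 203 in knockdown and 191, 215 and 163 in overexpression. The highest and the lowest value of Piwil2 both came from the overexpression group, so the groups overlapped fully. Its differences were 0.01 ± 0.11 and 0.05 ± 0.11 (edgeR adjusted p = 0.986 and 0.874).

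Piwil4 (MIWI2, chr9:14696230-14740733, minus strand) is the nuclear PIWI protein of the fetal testis. It had 5 to 17 counts per library, which was 0.796, 0.689 and 0.473 CPM in control_3NC, 0.691, 1.20 and 0.360 in control_5NC, 0.447, 0.583 and 0.842 in knockdown and 0.460, 0.808 and 0.398 in overexpression. Control_5NC held both the highest and the lowest value. The log2 fold change against control_5NC was -0.44 ± 0.47 (95% interval -1.47 to 0.59, edgeR adjusted p = 0.74), which holds a 2-fold lower level and leaves out a 2-fold higher one. Exons of Piwil4 overlap the antisense gene Gm10706, and without a stated strand setting their reads cannot be told apart.

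Of the helicases and granule proteins, 8 in all, none passed, and the log2 fold changes of the 7 other than Kif17 lay between -0.10 and 0.02 in overexpression against control_5NC and between -0.09 and 0.05 in knockdown against control_3NC. Ddx4 (mouse VASA homologue, chr13:112598333-112652475, minus strand), the germ cell helicase of all these granules, was at 633, 637 and 780.0 CPM in control_3NC, 614, 776 and 718 in control_5NC, 643, 661 and 646 in knockdown and 623, 757 and 600.5 in overexpression. Control_3NC 3, control_5NC 2 and overexpression 2 were high and the 3 knockdown libraries close together. The differences were -0.09 ± 0.12 in overexpression and -0.07 ± 0.12 in knockdown (edgeR adjusted p = 0.794 and 0.823). Mael (chr1:166201201-166238747, minus strand) was at 1319, 1182 and 1509 CPM in control_3NC, 1304, 1377 and 1389 in control_5NC, 1327, 1380.2 and 1320.4 in knockdown and 1359, 1393 and 1364 in overexpression. The 2 extremes both lay in control_3NC, and the differences were 0.02 ± 0.087 and 0.01 ± 0.087 (edgeR adjusted p = 0.96 and 0.981).

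Mov10l1 (chr15:88982909-89055152, plus strand) is the helicase that feeds precursors into processing, and Tdrd9 (chr12:111971559-112068854, plus strand) is the helicase partner of PIWIL4. Mov10l1 was at 86.6, 81.6 and 90.6 CPM in control_3NC, 87.9, 93.5 and 86.5 in control_5NC, 89.1, 88.6 and 89.7 in knockdown and 84.3, 102 and 85.2 in overexpression. Overexpression 2 was the highest library, and the differences were 0.02 ± 0.086 and 0.05 ± 0.086 (edgeR adjusted p = 0.956 and 0.846). The level of Tdrd9 was 137, 123 and 156 CPM in control_3NC, 134, 131 and 138 in control_5NC, 133, 143 and 143 in knockdown and 139.8, 140.3 and 119 in overexpression. Its groups overlapped, at -0.01 ± 0.096 and 0.01 ± 0.096 (edgeR adjusted p at least 0.973). Ddx25 (chr9:35536647-35558528, minus strand), a helicase of the chromatoid body that responds to gonadotropin, was at 499.6, 454 and 555 CPM in control_3NC, 529.5, 557 and 562 in control_5NC, 514, 509 and 494 in knockdown and 514, 512 and 516 in overexpression. The overexpression libraries all lay below those of control_5NC, by 0.10 ± 0.079 on the log2 scale (edgeR adjusted p = 0.639).

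Kif17 (chr4:138250435-138301967, plus strand), a kinesin that in spermatids moves between nucleus and cytoplasm and associates with the chromatoid body, varied more than most members, with a coefficient of variation of 18.4%. It was at 318, 237 and 304 CPM in control_3NC, 281, 212 and 218 in control_5NC, 250.1, 298 and 319 in knockdown and 344, 228 and 367 in overexpression. Overexpression 1 and 3 lay above every control_5NC library and overexpression 2 among them. The log2 fold change was 0.40 ± 0.18 against control_5NC (unadjusted p = 0.0483, edgeR adjusted p = 0.322) and 0.01 ± 0.18 in knockdown against control_3NC (edgeR adjusted p = 0.981). Without overexpression 2 the first value was 0.59 (edgeR adjusted p = 0.0713), and with the 3 libraries of lowest total given a term of their own it was 0.21 (edgeR adjusted p = 0.52).

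The 4 libraries with the lowest Kif17 were also the 4 with the lowest summed level of 19 genes of elongating spermatids and the sperm tail. That sum was 23319 CPM in control_3NC 2, 23876 in control_5NC 2, 25272 in control_5NC 3 and 25409 in overexpression 2, and 27697 or more in the other 8. Between overexpression and control_5NC 15 of the 19 spermatid genes were above 0, and the median log2 fold change of the 19 was 0.28. Of the 19, 9 were higher with an unadjusted p under 0.05, as were 8.9% of all tested genes. Their summed level was 23876 to 28233 CPM in control_5NC and 25409 to 32800 in overexpression. The part of these spermatid transcripts in the Kif17 difference was not tested.

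Among other germ cell lists, the round spermatid and the pachytene and diplotene lists held the larger shifts in the same comparison. There 8.9% of all tested genes were higher and 6.39% lower at an unadjusted p under 0.05. The 15 spermatogonia genes had a median log2 fold change of -0.03, with 0 higher and 1 lower at that p. The 20 meiotic prophase genes had a median of 0.03, with 3 higher and 1 lower, the latter also after adjustment by edgeR. Of 21 round spermatid genes 18 were above 0 in overexpression against control_5NC, 10 higher and 2 lower with an unadjusted p under 0.05, with a median log2 fold change of 0.30, and their summed level was 3345 to 3399 CPM in control_5NC and 3534 to 3972 in overexpression. Of 17 pachytene and diplotene genes 12 were below 0, 6 lower with an unadjusted p under 0.05 and 2 of them lower after adjustment by edgeR, with a median of -0.18. Their summed level did not follow, at 10907 to 11460 CPM in control_5NC and 11048 to 11779 in overexpression. The part of these lists in the differences of Gtsf1, Tdrd6, Tdrd5 and Exd1 was not tested. Exons of Kif17 overlap Sh2d5 on the same strand.

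**Figure D3:**
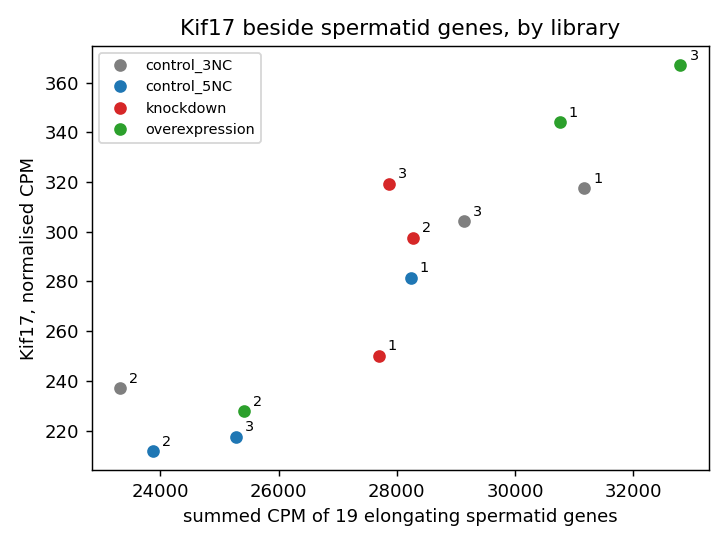
Kif17 (normalised CPM) against the summed CPM of 19 elongating spermatid and sperm tail genes, 1 point per library, coloured by group and numbered by replicate. The 4 libraries with Kif17 at 212 to 237 CPM have spermatid sums of 23319 to 25409, and overexpression 3, at 367 CPM, has the highest sum, 32800.

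The 7 genes grouped here as Tudor scaffolds encode Tudor proteins, several of which bind methylated arginines of PIWI proteins and order the granules. Tdrd9 and Tdrd12 were grouped with the helicases. Tdrd1 (chr19:56826209-56870012, plus strand), the partner of PIWIL2 in the intermitochondrial cement, was at 190.5, 164 and 205 CPM in control_3NC, 174, 196 and 181 in control_5NC, 213, 219.6 and 216 in knockdown and 209, 229 and 198 in overexpression. All libraries of each modified group lay above all libraries of its own control, and overexpression 3 lay below control_3NC 3. Of all tested genes 11.7% lay above control_5NC in that way in overexpression, and 6.48% above control_3NC in knockdown. The share of genes with both was not counted. The log2 fold changes of Tdrd1 were 0.21 ± 0.093 in overexpression (unadjusted p = 0.0465, edgeR adjusted p = 0.318) and 0.22 ± 0.093 in knockdown (unadjusted p = 0.0385, edgeR adjusted p = 0.559). The difference between the 2 effects was -0.01 ± 0.13 (95% interval -0.29 to 0.28, edgeR adjusted p = 0.995). Without control_3NC 2 the knockdown value was 0.13 (edgeR adjusted p = 0.811).

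When overexpression and knockdown were pooled against the pooled controls, a comparison chosen after the data were seen, Tdrd1 had the smallest p of the members. It was higher by 0.21 ± 0.066 (95% interval 0.07 to 0.35, unadjusted p = 0.00738, edgeR adjusted p = 0.155). Over 18 other fits of this comparison its adjusted p lay between 0.0427 and 0.357, and it passed in 1, by DESeq2. In that comparison 0 of 30 members passed by edgeR, where 0.262% of all tested genes did. Morc1 (-0.39 ± 0.13, edgeR adjusted p = 0.182) and Gpat2 (0.22 ± 0.084, edgeR adjusted p = 0.212) were the other 2 members with an unadjusted p under 0.05. These 3 of 30 compare with 17.8% of all tested genes. No member, and 0.329% of all tested genes, had all 6 modified libraries above all 6 controls.

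Tdrd6 (chr17:43615335-43630299, minus strand), which builds the chromatoid body, had the smallest p of the members in overexpression against control_5NC. It was at 849.5, 765 and 899 CPM in control_3NC, 938, 878 and 879.8 in control_5NC, 862, 816 and 819 in knockdown and 798, 801 and 749 in overexpression. The overexpression libraries lay below all libraries of control_5NC and of knockdown. The log2 fold change was -0.20 ± 0.078 against control_5NC (unadjusted p = 0.0247, edgeR adjusted p = 0.24) and -0.09 ± 0.078 against knockdown (edgeR adjusted p = 1). By total counts only the adjusted p against control_5NC was 0.0852, by DESeq2 it was 0.0756, and over the other fits it lay between 0.177 and 0.616. In knockdown against control_3NC Tdrd6 was at -0.01 ± 0.078 (edgeR adjusted p = 0.969).

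Tdrd5 (chr1:156255296-156303664, minus strand), which acts on pachytene piRNA precursors, differed most between the controls. It was at 194, 178 and 243 CPM in control_3NC, 226, 277 and 260.0 in control_5NC, 220.5, 210.4 and 210.3 in knockdown and 208, 239 and 205 in overexpression. Control_5NC was higher than control_3NC by 0.31 ± 0.12 (unadjusted p = 0.0213, edgeR adjusted p = 0.316), although control_3NC 3 lay above control_5NC 1. Exons of Tdrd5 overlap the antisense gene 4930518J20Rik. Tdrd5 was the only member with an unadjusted p under 0.05 in that comparison (1 of 30, against 12.9% of all tested genes). Overexpression against control_5NC, which shares the control_5NC libraries with it, gave -0.23 ± 0.12 (edgeR adjusted p = 0.398). The other 4 Tudor genes were Tdrd7, Tdrkh, Rnf17 and Stk31, the last of which also carries a kinase domain. Their log2 fold changes lay between -0.09 and 0.15 in overexpression and between -0.12 and 0.06 in knockdown. Counts of Tdrkh carried fractions in all 12 libraries, as did those of Ranbp9 among the granule proteins, and their exons overlap Oaz3 and Nol7 on the opposite strand, so their levels are uncertain.

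The processing and maturation genes make and finish the piRNA ends. Pld6 (Zucchini homologue, chr11:59783897-59787645, minus strand), the mitochondrial nuclease that cuts precursors, was at 46.5, 27.7 and 38.0 CPM in control_3NC, 58.7, 35.4 and 37.5 in control_5NC, 49.6, 49.7 and 47.9 in knockdown and 45.8, 35.8 and 49.1 in overexpression. The knockdown libraries lay close together and above all of control_3NC, while control_5NC and overexpression overlapped. The log2 fold change in knockdown was 0.39 ± 0.21 (95% interval -0.07 to 0.86, edgeR adjusted p = 0.563), and 0.22 without control_3NC 2 (edgeR adjusted p = 0.859). In overexpression it was -0.01 ± 0.21 (edgeR adjusted p = 0.993). Asz1, which sits with it on the outer mitochondrial membrane, was at -0.12 ± 0.17 in knockdown (edgeR adjusted p = 0.804).

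Gpat2 (chr2:127425199-127436092, plus strand), another protein of that membrane, was at 45.1, 33.8 and 43.9 CPM in control_3NC, 45.3, 37.7 and 38.5 in control_5NC, 47.1, 49.1 and 46.6 in knockdown and 49.7, 43.2 and 49.7 in overexpression. The knockdown libraries lay above all of control_3NC, and overexpression 2 lay below control_5NC 1. Its differences were 0.23 ± 0.12 in overexpression and 0.22 ± 0.12 in knockdown (edgeR adjusted p = 0.4 and 0.564), and without control_3NC 2 the knockdown value was 0.096 (edgeR adjusted p = 0.872).

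Gtsf1 (chr15:103402405-103430470, minus strand) was at 318, 247 and 318 CPM in control_3NC, 291, 261 and 277 in control_5NC, 297, 318 and 289 in knockdown and 342, 294 and 339 in overexpression. The overexpression libraries lay above those of control_5NC, the closest being 294 and 291 CPM. The overexpression log2 fold change was 0.23 ± 0.11 (unadjusted p = 0.045, edgeR adjusted p = 0.316), and 0.03 ± 0.10 in knockdown (edgeR adjusted p = 0.924). Exd1 (chr2:119516505-119547627, minus strand), an exonuclease-like partner of TDRD12, was at 24.9, 24.3 and 22.1 CPM in control_3NC, 25.1, 29.8 and 28.0 in control_5NC, 21.7, 22.2 and 23.8 in knockdown and 21.8, 26.7 and 21.3 in overexpression. All control_5NC libraries lay above all control_3NC libraries, by 0.22 ± 0.11 (edgeR adjusted p = 0.443), and overexpression 2 lay within the control_5NC range. Against control_5NC overexpression was at -0.25 ± 0.11 (unadjusted p = 0.0459, edgeR adjusted p = 0.317).

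Henmt1 (chr3:108939873-108960774, plus strand) methylates the 3′ end of the piRNA and Pnldc1 (chr17:12888729-12910230, minus strand) trims it. Henmt1 was at 41.2, 31.5 and 39.4 CPM in control_3NC, 42.0, 40.7 and 40.9 in control_5NC, 37.7, 34.2 and 36.5 in knockdown and 36.6, 39.1 and 40.3 in overexpression. Overexpression lay just below control_5NC without overlap, at -0.09 ± 0.10 (edgeR adjusted p = 0.752), and knockdown was at -0.05 ± 0.10 (edgeR adjusted p = 0.874). Pnldc1 had 106 to 149 counts per library, which was 8.23, 7.20 and 8.52 CPM in control_3NC, 8.04, 7.48 and 7.77 in control_5NC, 9.51, 8.23 and 7.90 in knockdown and 8.61, 8.66 and 8.22 in overexpression. Overexpression lay above control_5NC without overlap, at 0.13 ± 0.13 (edgeR adjusted p = 0.713), and knockdown was at 0.10 ± 0.13 (edgeR adjusted p = 0.778). Fkbp6, a co-chaperone in piRNA loading, ranged from 25.3 CPM in control_3NC 2 to 38.7 in overexpression 1, with differences of 0.07 and 0.14 (edgeR adjusted p = 0.855 and 0.675). Exons of Henmt1 and Pnldc1 overlap the annotated genes Gm9857 and AL589878.1 on the opposite strand.

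The nuclear genes act on transcription or chromatin. Morc1 (chr16:48431237-48630900, plus strand), an ATPase needed to silence retrotransposons in male germ cells, had 66 to 111 counts per library. It was at 4.84, 6.26 and 7.44 CPM in control_3NC, 6.98, 7.13 and 7.05 in control_5NC, 4.21, 4.28 and 4.99 in knockdown and 5.39, 6.76 and 4.71 in overexpression. Knockdown was the lowest group on average, with knockdown 3 above control_3NC 1, and overexpression lay below control_5NC without overlap. Against control_3NC the knockdown log2 fold change was -0.46 ± 0.19 (95% interval -0.87 to -0.05, unadjusted p = 0.0313, edgeR adjusted p = 0.559), and overexpression was at -0.33 ± 0.19 (edgeR adjusted p = 0.453). The knockdown value was -0.30 without control_3NC 3 (edgeR adjusted p = 0.512), -0.61 without control_3NC 1 (edgeR adjusted p = 0.211), and -0.45 without control_3NC 2 (edgeR adjusted p = 0.803).

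Tex15 (chr8:33516738-33585582, plus strand), a nuclear partner of PIWIL4, was at 134, 134 and 205 CPM in control_3NC, 111, 153 and 137 in control_5NC, 155, 153 and 149 in knockdown and 129, 171 and 130.4 in overexpression. Control_3NC 3 stood above the rest, and the differences were 0.10 ± 0.17 and -0.06 ± 0.17 (edgeR adjusted p = 0.851 and 0.917). Btbd18 (chr2:84659079-84668780, plus strand), which promotes transcription of pachytene piRNA precursors, had 83 to 101 counts per library. It was at 5.90, 5.45 and 5.61 CPM in control_3NC, 5.53, 6.35 and 6.33 in control_5NC, 5.81, 5.77 and 6.54 in knockdown and 5.52, 6.90 and 6.23 in overexpression. Its groups overlapped, at 0.03 ± 0.14 and 0.10 ± 0.14 (edgeR adjusted p = 0.947 and 0.81). Morc2b, a relative of MORC1 needed in meiosis, was at 314 to 379 CPM with differences of 0.03 and 0.01 (edgeR adjusted p = 0.917 and 0.97).

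**Figure D4:**
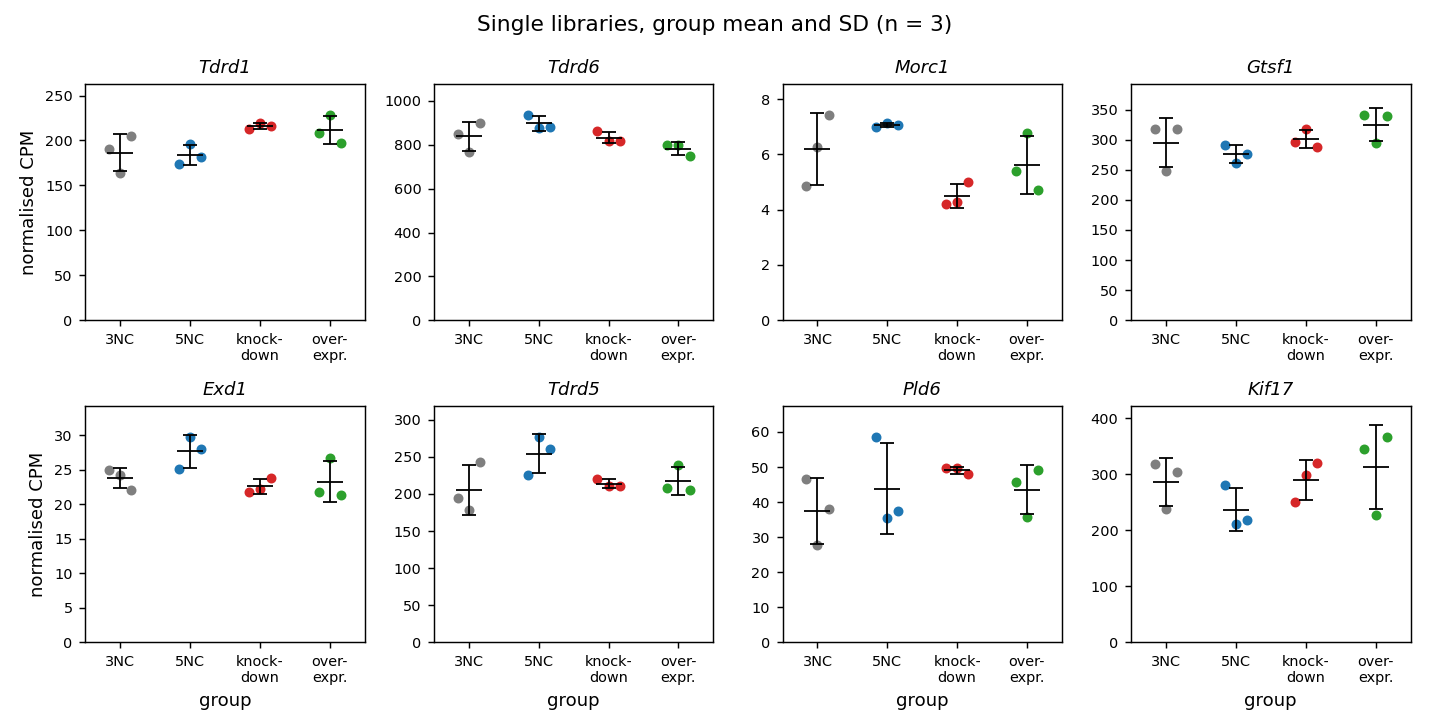
Normalised CPM of 8 members in each library by group, with the group mean and SD (n = 3) as a bar and whiskers, on axes that start at 0. Tdrd1 is at 198 to 229 CPM in the modified groups and 164 to 205 in the controls, and Morc1 at 4.21 to 4.99 in knockdown and 4.84 to 7.44 in control_3NC.

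Counted without adjustment, 5 of 30 members had a p under 0.05 in overexpression against control_5NC, namely Gtsf1, Tdrd1 and Kif17 higher and Tdrd6 and Exd1 lower. The share among all tested genes was 15.3%, 8.9% higher and 6.39% lower. In knockdown against control_3NC it was 2 of 30, Tdrd1 higher and Morc1 lower, against 8.69% of all tested genes, 3.25% higher and 5.43% lower. Both shares lay near the background. No member had an unadjusted p under 0.05 in overexpression against knockdown, or in the difference of effects, where 6.73% of all genes did. Groups that did not overlap were found for 3 members higher (Tdrd1, Gtsf1, Pnldc1) and 4 lower (Ddx25, Tdrd6, Henmt1, Morc1) in overexpression against control_5NC. Of all tested genes 11.7% were higher and 10.3% lower in that way. In knockdown against control_3NC they were found for 3 members higher (Tdrd1, Pld6, Gpat2) and 0 lower, against 6.48% and 6.57%.

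The larger differences lay between single libraries of 1 group. The summed CPM of the 30 genes was lowest in control_3NC 2, at 6480 CPM, and highest in control_3NC 3, at 8078 CPM, both from the same control group, and between 7006 and 7558 CPM in the other 10 libraries. Control_3NC 2 was the lowest of the 12 libraries for 14 of the 30 genes (16.8% of all tested genes) and the highest for 0 (21.8%). These 14 were Piwil1, Mov10l1, Tdrd12, Ddx25, Mael, Tdrd1, Tdrd5, Pld6, Gpat2, Gtsf1, Henmt1, Pnldc1, Fkbp6 and Btbd18. Control_3NC 3 was the highest for 10 genes (14.1% of all tested genes), among them Ddx4, Mael, Tex15, Morc1 and Rnf17. Overexpression 2 was the highest for 7 (5.06%) and overexpression 3 the lowest for 7 (9.09%).

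Control_3NC 2 is also the library with high macrophage, leukocyte and interferon genes. Its level of Ptprc (CD45, on all leukocytes) was 95.5 CPM, against 1.98 to 3.89 CPM in the other libraries. The summed level of the 22 genes of that list ranged from 155 to 1352 CPM in control_3NC, 189 to 229 in control_5NC, 173 to 223 in knockdown and 179.5 to 223 in overexpression. In control_3NC 1 and 3 it was 230 and 155 CPM. Of the 19 that were tested, 19 were below 0 in knockdown against control_3NC. There 10 of the 19 had an unadjusted p under 0.05, where 5.43% of all tested genes were lower at that p. The part of these transcripts in the lower levels of the 14 members was not tested. Without this library no member passed in knockdown against control_3NC, and 1 had an unadjusted p under 0.05, as did 6.11% of all tested genes in that fit.

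**Figure D5:**
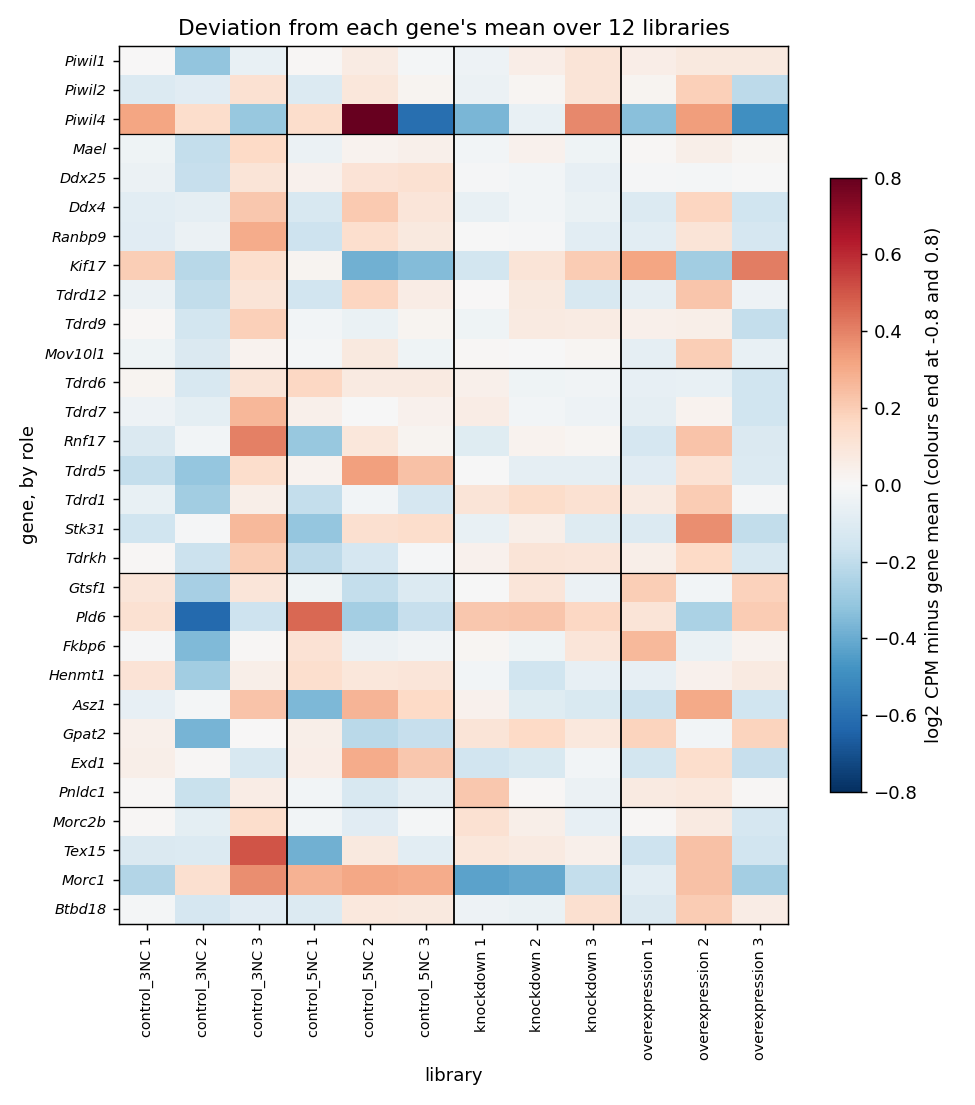
Log2 CPM of each of the 30 genes in each library minus the mean of that gene over the 12 libraries, genes by role in rows and libraries by group in columns, with blue below and red above the mean. The column of control_3NC 2 is below the mean for 27 of 30 genes, and control_3NC 3 is above it for 25.

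Of 31 other genes tied to the pathway, 28 were tested, and 0 passed in any comparison. The activator gene Mybl1 (A-MYB) was at 103 ± 11.2 CPM in control_3NC, 122 ± 22.5 in control_5NC, 90.4 ± 4.40 in knockdown and 94.8 ± 23.6 in overexpression (SD, n = 3 each). Its log2 fold change was -0.36 ± 0.17 in overexpression (edgeR adjusted p = 0.339) and -0.19 ± 0.17 in knockdown (edgeR adjusted p = 0.683). Control_5NC 2, control_5NC 3 and overexpression 2 were the 3 highest libraries, at 141, 128 and 122 CPM. They are also the 3 libraries of lowest total counts, and the part of library total in the Mybl1 difference was not tested. At an unadjusted p under 0.05 there were 3 higher and 1 lower of the 28 in overexpression against control_5NC, where 8.9% and 6.39% of all tested genes were. Gtsf1l, a relative of Gtsf1, was at 230.3, 226 and 235 CPM in control_5NC and 331, 284 and 338 in overexpression. It was higher without overlap, as were 11.7% of all tested genes, at 0.46 ± 0.13 (edgeR adjusted p = 0.126). In control_3NC it was at 304, 223 and 343 CPM and in knockdown at 283, 319.7 and 299, a difference of 0.05 ± 0.13 (edgeR adjusted p = 0.896). The difference between these 2 effects was 0.41 ± 0.19 (unadjusted p = 0.0465, edgeR adjusted p = 0.732).

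Tex19.1, needed to restrain retrotransposons in spermatocytes, was at 9.49, 7.55 and 8.05 CPM in control_5NC and 6.44, 6.90 and 6.30 in overexpression, at -0.35 ± 0.14 (edgeR adjusted p = 0.258). It was at 5.90, 7.14 and 5.68 CPM in control_3NC and 8.05, 7.58 and 7.97 in knockdown, at 0.33 ± 0.14 (edgeR adjusted p = 0.559). The modified and control libraries did not overlap in either arm, and lay in opposite directions. Of all tested genes 10.3% were lower without overlap in overexpression against control_5NC, and 6.48% were higher in that way in knockdown against control_3NC. The share of genes with both was not counted. For Tex19.1 the difference of effects was -0.69 ± 0.20 (unadjusted p = 0.00517, edgeR adjusted p = 0.543), and the 2 controls differed by 0.42 ± 0.14 (edgeR adjusted p = 0.277). Its relative Tex19.2 and the helicase gene Ddx20 were higher in overexpression by 0.28 ± 0.11 and 0.22 ± 0.090 (edgeR adjusted p = 0.224 and 0.262). Dnmt3l, the cofactor of DNA methylation in fetal germ cells, was at 2.17, 5.06 and 7.71 CPM in knockdown and 9.66, 9.33 and 7.89 in overexpression, with the groups adjacent at 7.71 and 7.89, and differed by 0.85 ± 0.33 (edgeR adjusted p = 1).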

How the data were processed

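The authors deposited estimated counts for each gene, as the header names say, beside per-length values of unstated unit that behave as FPKM. Reads were mapped to mm10 according to the submitters' processing notes; for the aligner, the counter, the annotation, strand use and filters the entry is: not given in the sources used here. A further 18 columns, for 9 other samples, were left out. Rounded counts went into edgeR 4.0.16 under R 4.3.3 (filterByExpr, minimum count 10, TMM, quasi-likelihood F-test, 1 model over 12 libraries). P-values were adjusted by Benjamini-Hochberg over all 16395 tested genes. Levels are normalised CPM, or deposited FPKM between genes. Intervals are those of the fit, at 95%. The test was also run on counts simulated from the gene means and fitted spreads of these data. Those counts held no library set apart as control_3NC 2 is, so they cannot show how the test behaves with it. Alternatives used DESeq2 1.42.0 and limma 3.58.1. Gene positions come from GENCODE M21 on GRCm38, the assembly behind mm10. No 2 libraries held identical counts. The members and lists were chosen with earlier results of these data known. Levels in every library are given for members chosen by small p, by large change or by role. Their differences are given chiefly for each modified group against its own control, and not in full for the other comparisons.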

Additional observations from a re-analysis of the deposited data

How the results depend on the processing

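The count of members that passed was 0 in 87 of 88 alternative fits over the 6 comparisons. These were total counts only, no filter on low counts, a replicate block, only the libraries compared, each library left out in turn, limma-voom, DESeq2 and, chosen after the data were seen, a separate term for the 3 libraries of lowest total. The exception was DESeq2 for both modified groups against both control groups, where 1 member, Tdrd1, passed (log2 0.21, DESeq2 adjusted p = 0.0427). With the replicate block the count stayed at 0 in all 6 comparisons; same-numbered libraries of overexpression and control_5NC had deviations correlated at 0.21, 0.31 and -0.12, those of knockdown and control_3NC at 0.04, -0.04 and -0.09, those of the 2 controls at 0.30, 0.18 and 0.0032, and those of overexpression and knockdown at 0.14, 0.031 and 0.18. No set had all 3 above 0.1, but the labels do not say what the replicate number stands for. Whether same-numbered libraries belong together was not tested. The block moved the count over all tested genes from 78 to 269 in overexpression against control_5NC and from 43 to 386 for both modified groups. The number of all tested genes that passed, which serves as the background, moved more. Beside 78 for overexpression against control_5NC it was 5 to 742 over the alternatives, beside 3 for knockdown against control_3NC 0 to 23, beside 40 between the controls 6 to 299, beside 3 for the difference of effects 3 to 53, beside 0 for overexpression against knockdown 0 to 12, and beside 43 for both modified groups 6 to 656; the highest value came from DESeq2 each time. Groups of 3 libraries limit what could be seen: at the median member the 95% interval reached 0.25 either side of the log2 fold change in overexpression against control_5NC, and 1.03 for Piwil4.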
